A study of Mus musculus with 7 samples.

Results

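The chromatin near 9 genes of the transforming growth factor beta (TGF-beta) pathway was compared between Dll1+ and Dll1- mammary tumour cells. The genes were the ligands Tgfb1, Tgfb2 and Tgfb3, the receptors Tgfbr1, Tgfbr2 and Tgfbr3, and the intracellular members Smad3, Smad7 and Skil. Their regions were those whose midpoint had a transcription start site (TSS) of 1 of these genes as its nearest protein-coding TSS. This gave 284 of 119215 union regions, for 9 of 21840 protein-coding genes. A union region is a stretch covered by at least 1 row of either peak list, after rows that overlapped or touched were merged.

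The data were made by ATAC-seq, an assay in which a transposase cuts and tags accessible DNA. Tumours came from mice with the MMTV-PyMT transgene, which expresses the polyoma middle T oncoprotein in the mammary epithelium, and also carried an mCherry transgene that reports expression of Dll1, a Notch ligand. Every sample carried both transgenes, and the groups were defined by the sort: Dll1+ cells were mCherry-positive and Dll1- cells mCherry-negative. Cells with CD45, CD31 or Ter119 on their surface had been depleted, a gate with no marker of fibroblasts. The 7 samples, 3 Dll1+ and 4 Dll1-, came from 4 tumours, of which 3 gave both and 1 a Dll1- sample alone. The age of the mice is not given in the labels. Each group was represented by 1 peak list pooled over its samples, so no difference could be set against the spread between tumours, and no test was possible.

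TGF-beta ligands are secreted in a latent form and, once released, bind the type II receptor, which recruits and activates the type I receptor. The activated receptor phosphorylates Smad2 and Smad3, which enter the nucleus with Smad4 and regulate target genes together with other transcription factors, AP-1 among them. Smad7 and SnoN, the product of Skil, restrain the pathway and are themselves among its targets. In the mammary gland TGF-beta restrains epithelial growth, and in mammary tumours it is also known for promoting invasion and metastasis.

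The sequences below are the windows around the summits of 10 regions, each of 201 bases, from the forward strand of GRCm38. They were chosen, with their values known, to show regions with and without the AP-1 sequence. The first 6 belong to regions that ranked higher in, or were found only in, the Dll1- list. Of these, 4 hold the AP-1 sequence, more than its share of such regions: 9 of the 23 ranked higher in Dll1- and 25 of the 74 of the Dll1- list alone hold it. Capitals mark AP-1 (TGACTCA or TGAGTCA), the CAGA box (CAGACA), RUNX (TGTGGT, or ACCACA on the other strand) and TEAD (CATTCC, which is GGAATG on the other strand).
Tgfb2 region ranked higher in Dll1-, chr1:186516070-186516270: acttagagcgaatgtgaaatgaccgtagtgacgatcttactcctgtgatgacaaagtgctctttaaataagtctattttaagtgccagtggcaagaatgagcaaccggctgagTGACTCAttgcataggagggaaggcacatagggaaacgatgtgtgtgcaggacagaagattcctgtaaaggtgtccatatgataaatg
Tgfb2 region of the Dll1- list only, chr1:186460886-186461086: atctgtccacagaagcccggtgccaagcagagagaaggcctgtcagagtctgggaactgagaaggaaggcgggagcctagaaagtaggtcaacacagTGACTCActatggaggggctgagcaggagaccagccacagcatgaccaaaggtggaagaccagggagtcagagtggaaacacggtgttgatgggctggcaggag
Tgfbr3 region ranked higher in Dll1-, chr5:107200351-107200551: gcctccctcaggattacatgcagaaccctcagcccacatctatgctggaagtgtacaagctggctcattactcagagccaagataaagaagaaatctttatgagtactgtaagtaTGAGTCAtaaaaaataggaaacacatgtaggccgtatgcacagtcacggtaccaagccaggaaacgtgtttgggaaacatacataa
Smad3 region ranked higher in Dll1-, chr9:63744969-63745169: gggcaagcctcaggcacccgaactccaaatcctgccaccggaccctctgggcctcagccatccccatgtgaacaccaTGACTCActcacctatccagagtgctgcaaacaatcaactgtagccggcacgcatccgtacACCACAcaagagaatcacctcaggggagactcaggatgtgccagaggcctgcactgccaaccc
Tgfbr2 region ranked higher in Dll1-, chr9:116359698-116359898: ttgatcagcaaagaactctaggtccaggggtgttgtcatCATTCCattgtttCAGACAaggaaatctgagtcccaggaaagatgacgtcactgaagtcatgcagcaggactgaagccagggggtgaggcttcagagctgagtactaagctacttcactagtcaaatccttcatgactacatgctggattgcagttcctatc
Tgfbr1 region of the Dll1- list only, chr4:47429734-47429934: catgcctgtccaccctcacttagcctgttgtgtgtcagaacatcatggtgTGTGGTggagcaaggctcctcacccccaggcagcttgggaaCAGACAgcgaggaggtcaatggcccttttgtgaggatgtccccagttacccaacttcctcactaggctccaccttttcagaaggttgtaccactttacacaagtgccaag

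The other 4 windows belong to regions that ranked higher in, or were found only in, the Dll1+ list. None of them holds the AP-1 sequence. Few regions of this kind do, with 0 of the 12 ranked higher in Dll1+ and 2 of the 28 of the Dll1+ list alone. The choice also left out windows with the CAGA box or RUNX. Of those 28 regions, 8 hold the CAGA box and 4 RUNX. Of the 74 of the Dll1- list alone, 20 and 11 do. Capitals mark the TEAD sequence GGAATG.
Skil region ranked higher in Dll1+, chr3:31081212-31081412: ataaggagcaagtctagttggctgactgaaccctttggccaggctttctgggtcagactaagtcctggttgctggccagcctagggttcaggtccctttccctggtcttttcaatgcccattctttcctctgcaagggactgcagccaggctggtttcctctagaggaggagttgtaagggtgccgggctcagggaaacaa
Tgfbr3 region ranked higher in Dll1+, chr5:107145979-107146179: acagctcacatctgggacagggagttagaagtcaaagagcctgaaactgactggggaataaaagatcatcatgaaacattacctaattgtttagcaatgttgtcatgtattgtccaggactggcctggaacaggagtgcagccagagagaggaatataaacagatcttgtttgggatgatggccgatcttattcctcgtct
Tgfb2 region ranked higher in Dll1+, chr1:186723337-186723537: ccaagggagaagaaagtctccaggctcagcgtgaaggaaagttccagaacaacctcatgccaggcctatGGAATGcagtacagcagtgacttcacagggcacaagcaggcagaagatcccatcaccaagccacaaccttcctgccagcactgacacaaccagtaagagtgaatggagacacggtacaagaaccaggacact
Tgfb3 region of the Dll1+ list only, chr12:86007446-86007646: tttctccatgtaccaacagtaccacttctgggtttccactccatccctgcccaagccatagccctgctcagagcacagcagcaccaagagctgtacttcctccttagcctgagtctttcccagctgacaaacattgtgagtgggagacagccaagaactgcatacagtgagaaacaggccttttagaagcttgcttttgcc

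The 2 lists differed in depth. Recovered background over the genome was 3.74 reads at a summit for Dll1+ and 7.20 for Dll1-, or 1.93 times as many. In regions that both lists held, the median ratio of Dll1+ to Dll1- reads was 0.614. Read ratios below are divided by this median, so that 1 is the typical shared region. They carry exact Clopper-Pearson 95% intervals, which cover counting error only, since each list pools its tumours. The reads carry no molecular identifiers, a further limit of these counts. The central 95% of shared regions over the whole genome had a scaled ratio between 0.458 and 2.10.

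As a set, the 9 genes held each kind of region at nearly the share found over all union regions. Both lists held 182 of the 284 regions. The Dll1+ list alone held 28 regions (9.86%, Wilson 95% interval 6.91 to 13.9), where 9.01% of all union regions were found only in that list. The Dll1- list alone held 74 (26.1%, 21.3 to 31.5), beside 24.6% of all union regions. Each background value lies inside the members' interval.

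The counts were also taken by role, beside the 9.01% and 24.6% of all union regions. The ligands had 79 regions, of which 13 were in the Dll1+ list alone (16.5%, 9.88 to 26.2) and 16 in the Dll1- list alone (20.3%, 12.9 to 30.4). The receptors had 94 regions, 8 of them in the Dll1+ list alone (8.51%) and 22 in the Dll1- list alone (23.4%). Smad3, Smad7 and Skil had 111 regions, 7 in the Dll1+ list alone (6.31%, 3.09 to 12.5) and 36 in the Dll1- list alone (32.4%, 24.4 to 41.6). The intervals of the ligands and of the Smad and Skil genes overlap for both classes.

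**Figure D1:**
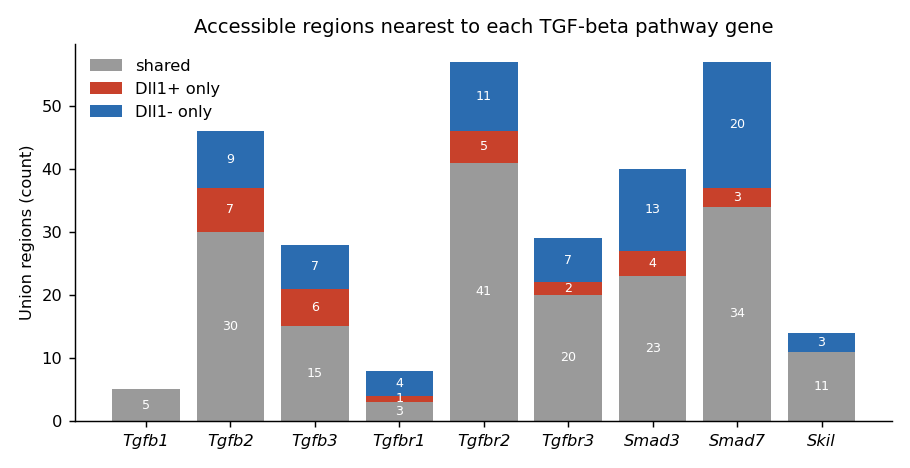
Number of union regions (vertical axis) nearest to each of the 9 genes, stacked by the list that held them: both lists (grey), Dll1+ alone (red) or Dll1- alone (blue). Smad7 had the most regions of the Dll1- list alone, 20 of 57, and Tgfb1 and Skil had no region of the Dll1+ list alone.

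The counts also depended on the rows kept. A stricter setting, chosen after the data had been seen, scaled the Dll1- reads and background to the Dll1+ depth and kept rows of either list with a −log10 p of at least 5.68, the 10th percentile of the Dll1+ list. Scaling alone, at the lowest p of the Dll1+ list, left all 284 regions in their class. Both changes together left 256 regions of the 9 genes, 37 in the Dll1+ list alone (14.5%; 12.3% of all union regions) and 50 in the Dll1- list alone (19.5%; 18.9%). Under both the excess of Dll1- regions turned for Tgfb2, Tgfb3 and Tgfbr2, which then had 1, 2 and 4 more regions in the Dll1+ list alone. Smad7 kept 7 more in the Dll1- list alone, Tgfbr3 4 more, Smad3 and Tgfbr1 3 more each and Skil 2 more, and Tgfb1 had 1 more.

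Regions held by 1 list alone were mostly weak ones. Only 1 of the 28 Dll1+ regions and 16 of the 74 Dll1- regions lay above the median fold enrichment of their own list (3.57% and 21.6%, beside 15.4% and 22.3% of all such regions). Their median reads were 22 and 42. Multiplied by 0.614, the Dll1- reads reached 22, the median of all regions of the Dll1+ list alone, in 45 of the 74 regions (60.8%; 51.6% of all regions of the Dll1- list alone).

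For the 182 shared regions, strength was compared by rank. The percentile of a region's strongest row by fold enrichment among all rows of its list was taken in each list, and the Dll1- percentile was subtracted from the Dll1+ percentile. The median difference was -1.97 points, beside -1.67 over all shared regions (SD 15.2). A difference of at least 20 points was counted as higher in a list. By this measure 12 member regions were higher in Dll1+ (6.59%, 3.81 to 11.2), where 6.39% of all shared regions were. In Dll1-, 23 were higher (12.6%, 8.57 to 18.3), beside 11.1% of all shared regions. Both shares were near the background.

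The split depended on the rows ranked. With the strongest 132872 rows of each list, as many as the Dll1+ list holds, 20 member regions were higher in Dll1+ and 15 in Dll1-, beside 10.5% and 7.93% of all shared regions, and the median difference was 0.19. Ranked by recovered reads, 3 were higher in Dll1+ and 29 in Dll1-, beside 4.53% and 13.5% of all shared regions.

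**Figure D2:**
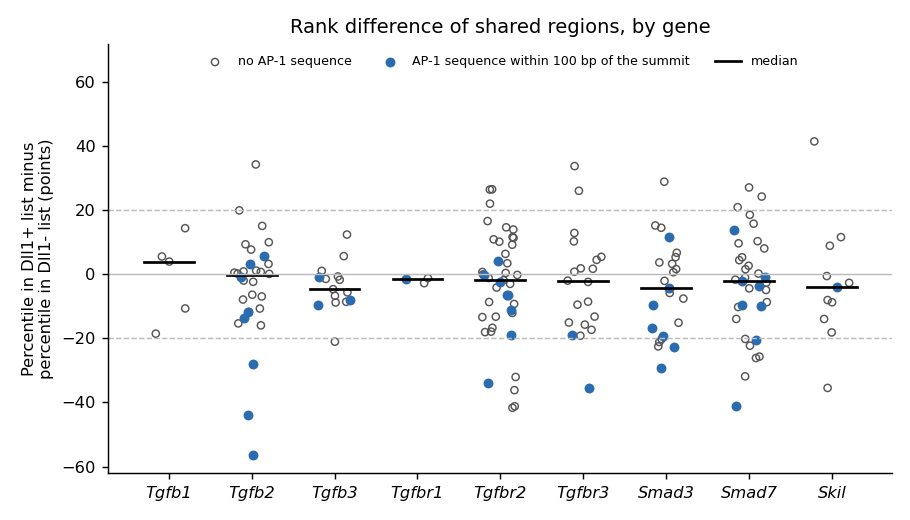
Rank difference of each shared region (percentile in the Dll1+ list minus percentile in the Dll1- list, vertical axis) for each gene, with medians as black lines and 20 points either way as dashed lines. Filled blue points, regions with the AP-1 sequence, lie below 0 in 33 of 38 regions, and the 12 regions at or above 20 points are all open circles.

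The regions lay far from the start sites. Of the 284, 160 lay in introns, 98 between genes, 17 in promoters and 9 in exons or UTRs. Here a promoter runs from 1000 bp before to 100 bp after the start of any annotated transcript, of any gene. The promoter share was 5.99%, beside 11.7% of all union regions. The median distance of a midpoint to its TSS was 56064 bp, beside 23094 bp over all regions, and 134 of the 284 lay within 50 kb. Only 110 lay inside the gene they were assigned to, and 71 lay inside another gene. Assignment to the nearest TSS does not show which gene a region acts on.

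At the start sites the lists were alike. The region over the 5′ end of each of the 9 genes was in both lists, and the rank differences ran from -6.35 points at Tgfbr2 to 4.01 points at Tgfb1, none near 20. The 17 regions in promoters of any transcript were not the same set. Some lay far from the start site they were assigned to, as far as 155184 bp at Tgfbr2. The regions over the 5′ ends of Tgfbr2 and Tgfbr3 were classed as 5′ UTR and are not among them. Of the 17, 15 were shared, 2 were in the Dll1+ list alone, at Tgfbr1 and Smad7, and 0 in the Dll1- list alone. Of all promoter regions, 3.43% were in the Dll1+ list alone and 11.5% in the Dll1- list alone.

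**Figure D3:**
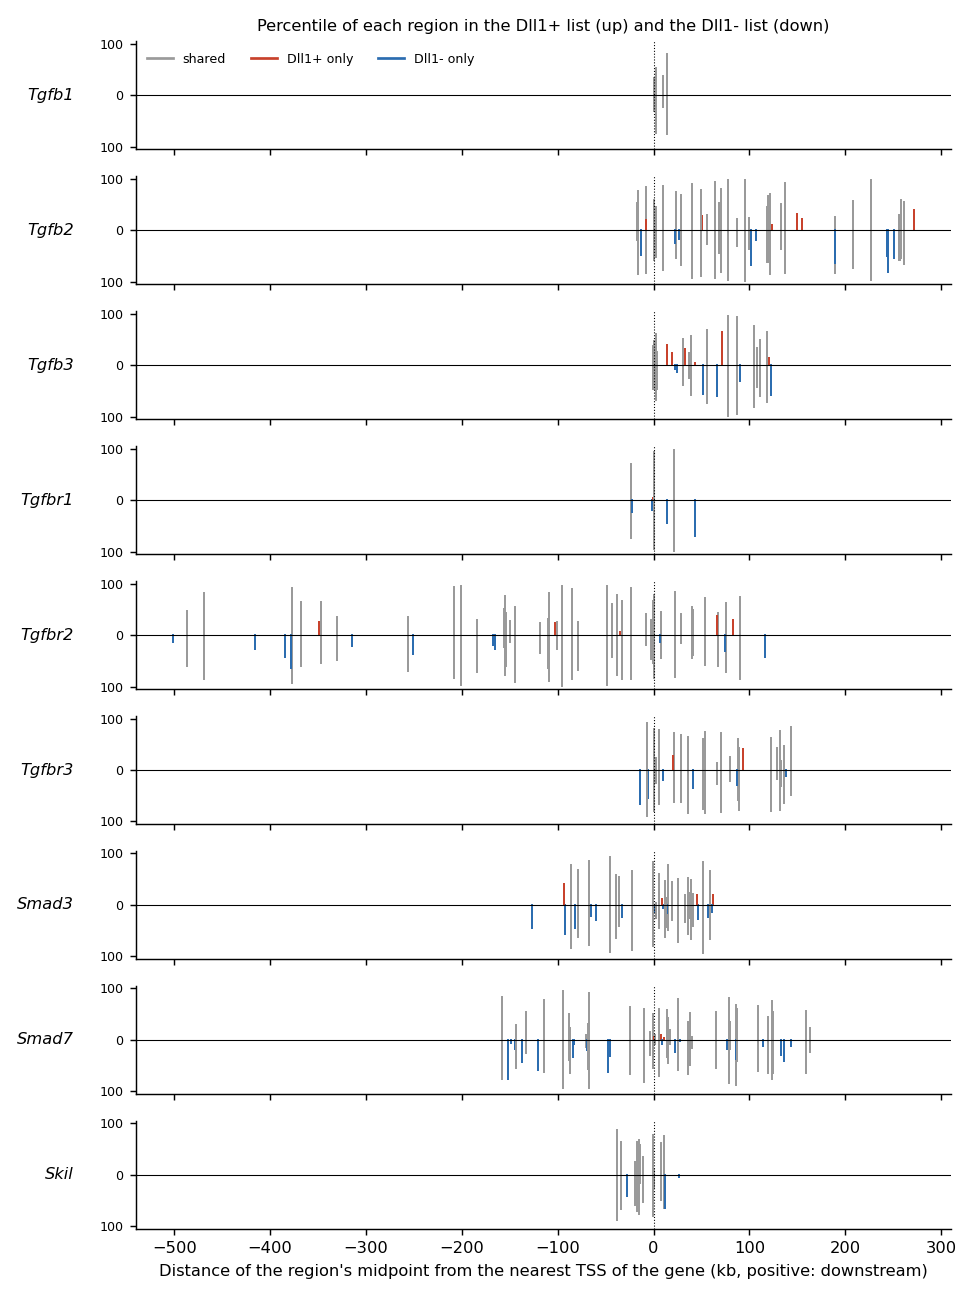
Percentile of every region of the 9 genes in the Dll1+ list (upward lines) and in the Dll1- list (downward lines), against the distance of its midpoint from the TSS in kb, positive downstream. Grey regions are in both lists, red in Dll1+ alone and blue in Dll1- alone, and the grey line of the region over each start site has a similar height in both directions.

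Tgfb1, the ligand most widely expressed in epithelium and stroma, lies at chr7:25687002-25705077 (ENSMUSG00000002603.15). It had 5 regions, all shared and all within the gene. The promoter region had a fold enrichment of 4.32 in Dll1+ and 3.66 in Dll1-, from 65 and 89 reads, with its summits 407 bp apart. The strongest region, in an intron 14493 bp downstream of the start, had folds of 10.6 and 8.41 and a scaled read ratio of 1.47 (1.13 to 1.92). Rank differences ran from -18.5 to 14.5 points, so no Tgfb1 region reached 20 in either direction. The local background at Tgfb1 was at least 1.73 times the genome-wide value in Dll1+ and 1.40 times in Dll1-, whereas the other genes except Skil and Tgfbr1 each had a region at the genome-wide value in both lists.

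Tgfb2, a ligand with roles in development and in epithelial to mesenchymal transition, lies at chr1:186622792-186705989 (ENSMUSG00000039239.14). Its 46 regions comprised 30 shared, 7 of the Dll1+ list alone and 9 of the Dll1- list alone. The strongest region of the 9 genes, 95567 bp downstream of the start and between genes, was shared, with folds of 20.2 and 21.2 from 344 and 610 reads and a scaled ratio of 0.919 (0.803 to 1.05). The promoter region was also alike in the lists, with folds of 6.47 and 5.76 and a rank difference of 0.254 points.

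The largest rank difference of any member region was at Tgfb2. The region at chr1:186516026-186516295, in an intron of A730004F24Rik and 189540 bp downstream of the Tgfb2 start, ranked 56.3 points lower in Dll1+. Its fold was 3.80 from 17 reads in Dll1+ and 10.1 from 82 reads in Dll1-, a scaled ratio of 0.338 (0.188 to 0.575). Another, at chr1:186448752-186449187 and 256731 bp downstream, had folds of 3.08 and 5.84, a difference of -44.0 points and a ratio of 0.501 (0.316 to 0.773). The strongest region of the Dll1- list alone lay between them at chr1:186460805-186461192, with a fold of 9.80 from 92 reads, which scale to 56.5 reads at the Dll1+ depth. All 3 hold the AP-1 sequence, and the first and last are printed above. Another region of the Dll1- list alone with this sequence, chr1:186604158-186604525, had a fold of 6.94 from 76 reads.

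The first 3 of these regions lay far downstream of Tgfb2. Beyond 180 kb from the start, a limit set after the values were seen, Tgfb2 had 12 regions, of which 7 hold the AP-1 sequence, beside 19.9% of all regions beyond that limit. There 4 were in the Dll1- list alone and 1 in the Dll1+ list alone, beside 26.5% and 14.2% of all. Of 7 shared regions, 3 ranked higher in Dll1- and 0 in Dll1+, beside 11.0% and 12.2%. At 50 kb, the limit used for every gene, the regions beyond it comprised 6 of the Dll1- list alone and 5 of the Dll1+ list alone among 31 (all regions 26.7% and 11.5%), and those within it 3 and 2 among 15 (23.6% and 7.87%). Within 50 kb of the start, 2 of 10 shared regions ranked higher in Dll1+ and 0 in Dll1-, beside 5.17% and 10.9% of all shared regions there. The higher of these, at chr1:186723107-186723564 in an intron of Rrp15, had folds of 5.80 and 2.97 and a difference of 34.4 points. It rested on 29 reads in each list, its scaled ratio of 1.63 had an interval that includes 1 (0.940 to 2.83), and ranked by reads the difference was 17.0 points.

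Tgfb3, the third ligand, lies at chr12:86056745-86079041 (ENSMUSG00000021253.7). It had 28 regions, of which 15 were shared, 6 in the Dll1+ list alone and 7 in the Dll1- list alone, and 22 of the 28 lay within Ttll5, which encodes a tubulin polyglutamylase. The share in the Dll1+ list alone was the highest of the 9 genes (21.4%), with an interval of 10.2 to 39.5 that includes the background of 9.01%. The strongest region of the Dll1+ list alone was here, at chr12:86006937-86007769 in an intron of Ttll5, with a fold of 7.20 from 36 reads. At the typical ratio these correspond to 58.7 reads in the Dll1- list. The strongest Tgfb3 region, also in Ttll5, was shared, with folds of 17.6 and 19.2. The promoter region had folds of 5.40 and 4.73 and a ratio of 1.34 (1.08 to 1.67). One shared region passed 20 points, in an intron of Tgfb3 4064 bp from the start, with folds of 3.80 and 4.70 and a difference of -21.0 points. Its read ratio was 0.926 (0.709 to 1.20), and the difference was -13.4 points by p and -4.90 points by reads.

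Tgfbr1, the type I receptor kinase that phosphorylates Smad2 and Smad3, lies at chr4:47353222-47414931 (ENSMUSG00000007613.15). It had 8 regions, 3 of them shared, 1 in the Dll1+ list alone and 4 in the Dll1- list alone. The shared regions had nearly the same rank in both lists, with differences from -2.72 to -1.16 points. The promoter region was the strongest promoter region of the 9 genes, with folds of 15.6 and 15.8 from 369 and 612 reads and a ratio of 0.983 (0.861 to 1.12). An intronic region, 21182 bp downstream of an internal start site of Tgfbr1, had folds of 18.0 and 19.3 from 95 and 220 reads. Its ratio of 0.704 (0.547 to 0.899) lay below 1, although both folds ranked near the top of their lists. Of the Dll1- regions, the strongest was at chr4:47429661-47430012, between genes, with a fold of 7.32 from 59 reads. The region of the Dll1+ list alone lay 892 bp upstream of the start. It was the weakest of its class among the 9 genes, with a fold of 2.24, and is named after its value was seen.

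Tgfbr2, the type II receptor that binds the ligand first, lies at chr9:116084293-116175360 (ENSMUSG00000032440.13). Its 57 regions reached as far as 501299 bp from the start and comprised 41 shared, 5 of the Dll1+ list alone and 11 of the Dll1- list alone. The region over the 5′ end had folds of 9.55 and 10.4 and a ratio of 0.979 (0.799 to 1.20), and the strongest region, 95184 bp upstream, had folds of 17.7 and 19.6 with a ratio of 0.683 (0.553 to 0.841).

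Of the 15 shared Tgfbr2 regions within 50 kb, 2 ranked higher in Dll1+ and 0 in Dll1-, beside 5.17% and 10.9% of all shared regions at that distance. Of the 26 beyond it 1 ranked higher in Dll1+ and 5 in Dll1-, beside 9.32% and 11.6%. The near regions, 28788 bp downstream and 8046 bp upstream and described after their values were seen, each rested on 22 Dll1+ reads. Their ratios of 1.63 (0.861 to 3.09) and 1.49 (0.799 to 2.78) had intervals that include 1, and by reads their differences were 13.4 and 11.0 points. In the region 8046 bp upstream the strongest summits of the lists lay 305 bp apart. Whether near and far regions differ was not tested. The largest difference was at chr9:116359466-116360136, 184441 bp upstream, with folds of 4.01 and 7.56, 18 and 61 reads, -41.7 points and a ratio of 0.481 (0.268 to 0.825). The strongest summits of the lists lay 209 bp apart in this region, so the values may describe different parts of it.

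Tgfbr3, the co-receptor betaglycan that presents the ligand, lies at chr5:107106570-107289629 (ENSMUSG00000029287.14). It had 29 regions, of which 20 were shared, 2 in the Dll1+ list alone and 7 in the Dll1- list alone, and 25 of the 29 lay within the gene. The region over the 5′ end had folds of 10.2 and 9.15. Its introns held differences of over 30 points in both directions. The region at chr5:107145749-107146547 had a fold of 11.0 from 70 reads in Dll1+ and 4.88 from 39 reads in Dll1-. It ranked 33.9 points higher in Dll1+, with a scaled ratio of 2.93 (1.95 to 4.45), above the central 95% of all shared regions. In the other direction, chr5:107200257-107200684 had folds of 4.88 and 8.81, 44 and 128 reads, -35.4 points and a ratio of 0.560 (0.388 to 0.795), inside the central 95% of all shared regions. The second holds the AP-1 sequence and the first holds none of the 6 searched. In single lists, an intronic Dll1+ region at chr5:107195749-107196219 had a fold of 4.82 from 29 reads, and a Dll1- region upstream of the gene at chr5:107303232-107303815 had 6.71 from 54 reads.

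Smad3, the receptor-activated transcription factor of the pathway, lies at chr9:63646767-63757994 (ENSMUSG00000032402.12). Of its 40 regions 23 were shared, 4 were in the Dll1+ list alone and 13 in the Dll1- list alone (32.5%, 20.1 to 48.0). Among rows above the median fold of their list, the excess of 9 Dll1- regions fell to 0. The promoter region ranked alike, with folds of 11.4 and 9.45 and a ratio of 0.984 (0.815 to 1.19). All 6 shared regions that passed 20 points lay within 50 kb of the start, where 18 regions were shared. Of these 18, 1 ranked higher in Dll1+ and 5 in Dll1-, beside 5.17% and 10.9% of all shared regions at that distance. Nearby intronic regions gave opposite values: chr9:63742943-63743488 had folds of 9.65 and 4.86 and a difference of 29.0 points, and chr9:63744861-63745220 had folds of 3.00 and 4.41 and a difference of -29.2 points. The second rested on 32 and 111 reads, a ratio of 0.470 (0.307 to 0.702). The first had 111 and 127 reads, a ratio of 1.42 (1.09 to 1.85), and its difference was 15.2 points by p and 6.04 by reads. The strongest intronic region, 51526 bp downstream, had folds of 11.4 and 15.0 from 66 and 218 reads and a ratio of 0.493 (0.369 to 0.653), although its rank differed by only -9.62 points. In the Dll1+ list alone, chr9:63851041-63851373 upstream of the gene had a fold of 4.86 from 22 reads.

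Skil, which encodes the Smad corepressor SnoN, lies at chr3:31095058-31122577 (ENSMUSG00000027660.16). It had 14 regions, all within 50 kb, of which 11 were shared and 3 in the Dll1- list alone. The promoter region was the deepest of the 9 genes, with 407 and 626 reads, folds of 9.53 and 9.33 and a ratio of 1.06 (0.933 to 1.20). Most of the regions lay in a cluster upstream, and this cluster held the largest difference towards Dll1+. At chr3:31080875-31081462, 13890 bp upstream, the fold was 6.44 from 87 reads in Dll1+ and 2.92 from 51 reads in Dll1-. The difference was 41.6 points and the scaled ratio 2.78 (1.95 to 4.01). By p it was 45.6 points and by reads 35.1 points. A shared region 19051 bp upstream of the start, chosen after its values were seen, had folds of 3.67 and 5.94 and a difference of -35.5 points, so values within the cluster went in both directions. The local background at Skil was at least 2.58 times the genome-wide value in Dll1+.

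Smad7, the inhibitory Smad that blocks the activated receptor, had 57 regions, 34 shared, 3 in the Dll1+ list alone and 20 in the Dll1- list alone (35.1%, 24.0 to 48.1, beside 24.6% of all union regions). The gene lies at chr18:75367529-75395935 (ENSMUSG00000025880.11), and 33 of its regions lay within another gene, with 18 in Ctif and 14 in Dym. Beyond 50 kb of the start, 15 of 36 regions were in the Dll1- list alone and 0 in the Dll1+ list alone, beside 26.7% and 11.5% of all union regions at that distance. Within 50 kb the counts were 5 and 3 of 21, beside 23.6% and 7.87%. The promoter region had folds of 5.56 and 5.39 from 157 and 264 reads and a ratio of 0.969 (0.790 to 1.19), with its summits 667 bp apart. The strongest region, in an intron of Dym 94267 bp upstream, had folds of 17.0 and 14.5.

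Of the 34 shared Smad7 regions, 3 ranked higher in Dll1+ and 7 higher in Dll1-, beside 6.39% and 11.1% of all shared regions. The largest difference was 87396 bp upstream in Dym, with folds of 3.65 and 6.64 from 22 and 89 reads, -41.2 points and a ratio of 0.403 (0.240 to 0.648). The strongest Smad7 region of the Dll1- list alone, also in Dym and 151952 bp upstream, had a fold of 8.56 from 76 reads.

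Across the 9 genes, 21 of the 23 regions higher in Dll1- had a read ratio whose interval lay away from 1 (91.3%, beside 63.9% of all regions higher in Dll1-). Among those higher in Dll1+ it was 7 of 12 (58.3%, beside 73.3%). Within 50 kb of the start lay 8 of the 12 (66.7%, beside 57.1%) and 9 of the 23 (39.1%, beside 69.2%). None of them was a promoter.

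Windows reaching 100 bp to each side of a region's strongest summit were searched, on both strands, for 6 consensus sequences. AP-1, the Fos and Jun family, binds TGACTCA or TGAGTCA. It was present in 65 of 284 windows (22.9%, 18.4 to 28.1), beside 18.1% of all union regions. Outside promoters the shares were 24.3% and 19.4%. By class, it was in 38 of 182 shared windows (20.9%; 15.4% of all shared), in 2 of 28 of the Dll1+ list alone (7.14%; 4.40%) and in 25 of 74 of the Dll1- list alone (33.8%; 30.4%). The members followed the order of the whole genome.

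**Figure D4:**
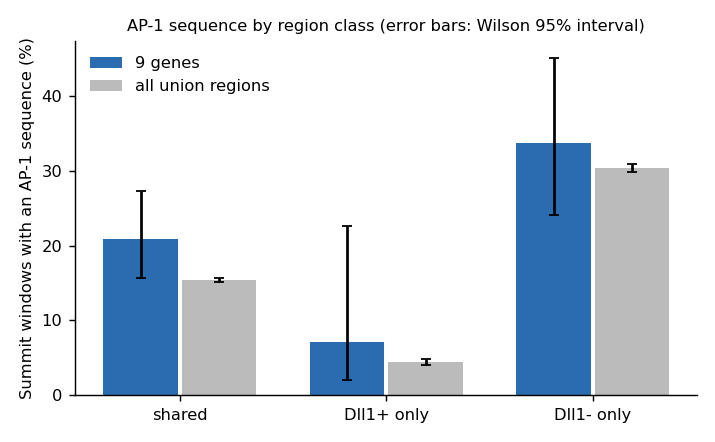
Share of summit windows that hold the AP-1 sequence (vertical axis, %) by class of region, for the 9 genes (blue) and all union regions (grey), with Wilson 95% intervals as error bars. The share is highest in regions of the Dll1- list alone, 33.8% for the 9 genes, and lowest in those of the Dll1+ list alone, 7.14%.

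Among the shared regions, AP-1 windows sat on the Dll1- side in rank. Of 38 with the sequence, 33 had a rank difference below 0 (86.8%), with a median of -9.54 points and a range from -56.3 to 13.8. Of 144 without it, 75 were below 0 (52.1%), with a median of -0.810 points. Over all shared regions the medians were -7.97 and -0.899 points, and the shares below 0 were 79.5% and 55.3%. The median scaled read ratio of member regions was 0.712 with the sequence and 1.06 without, beside 0.804 and 1.03 over all shared regions. Of the 23 regions higher in Dll1-, 9 held it (34.8% of all such regions do), and of the 12 higher in Dll1+, 0 did (3.87%).

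The regions of the Dll1- list alone with AP-1 were spread over the genes. They were 6 of 20 at Smad7, 5 of 7 at Tgfb3, 4 of 9 at Tgfb2 and 3 of 11 at Tgfbr2. Tgfbr3 had 3 of 7, Smad3 3 of 13, Tgfbr1 1 of 4 and Skil 0 of 3. Of all union regions of the Dll1- list alone, 30.4% held the sequence. None of the Tgfb1 windows held the sequence.

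Sequences known to be bound by Smad proteins were found at nearly the share of all regions. The CAGA box, CAGACA, was in 63 of 284 windows (22.2%, beside 21.2% of all regions), in 8 of 28 of the Dll1+ list alone (28.6%, 15.3 to 47.1; 22.3% of all such regions) and in 20 of 74 of the Dll1- list alone (27.0%, 18.2 to 38.1; 22.1%). The palindrome GTCTAGAC was in 1 window (0.352%, beside 0.330%), in a Tgfb2 intron in the Dll1- list alone, a region named after the search. TEAD (GGAATG) was in 17.3% of windows, beside 14.8% of all regions, RUNX (TGTGGT) in 14.1% and 15.3%, and FOX (TGTTTAC or TATTTAC) in 6.69% and 5.82%. A match describes the letters of a window and does not show that a factor binds there.

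A list of 30 other genes of the pathway, from ligand activation to targets, gave 525 regions. Of these 352 were shared, 31 were in the Dll1+ list alone (5.91%, 4.19 to 8.26) and 142 in the Dll1- list alone (27.0%, 23.4 to 31.0), beside 9.01% and 24.6% of all union regions. More regions were in the Dll1- list alone at 23 genes, more in the Dll1+ list alone at 1, Acvrl1, and equal numbers at 6. Over all union regions the Dll1- list alone also held more, 29318 beside 10744. The same count over all genes was not made, so this lean is not read as a trait of the pathway. Regions of the Dll1- list alone with none of the Dll1+ list alone numbered 10 at Fn1, which encodes the matrix protein fibronectin, 7 at Furin, the protease that cleaves the TGF-beta precursor, and 7 at Lrrc32, which tethers latent TGF-beta to cells. The same held for 5 at Smad6, an inhibitory Smad of the bone morphogenetic protein branch, 4 at Eng, the endothelial co-receptor endoglin, and 3 at Smad4, the common partner of the activated Smads. All 4 regions of Eng were of this kind. The genes with the most regions were Thbs1, whose product activates latent TGF-beta, with 47, the corepressor gene Tgif1 with 42, and Ltbp1, which binds the latent ligand, with 38.

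Regions at marker genes of cell types were counted in the same way, beside 24.6% of all union regions in the Dll1- list alone and 9.01% in the Dll1+ list alone. Of 159 regions nearest to 15 fibroblast genes, 80 were in the Dll1- list alone (50.3%, 42.6 to 58.0) and 5 in the Dll1+ list alone. These genes differed: the collagen gene Col1a2 had 11 and 0 with 1 shared, and Dcn 4 and 0 with 14 shared. For 8 endothelial genes the counts were 26 and 6 of 89 regions (29.2% and 6.74%), and for 10 immune genes 13 and 3 of 38 (34.2% and 7.89%), with no region at Cd4 and Lyz2. For 8 basal genes they were 25 and 10 of 87 (28.7% and 11.5%), and for 10 luminal genes 36 and 20 of 227 (15.9% and 8.81%). Both lists held regions at the luminal genes Krt8, Krt18 and Epcam (9, 10 and 13 shared). They also did at the fibroblast gene Col1a1 (9), the endothelial gene Cdh5 (15) and the immune gene Ptprc (11). Presence in both lists therefore does not tell the cell types apart. The part of fibroblasts or other cells in the values of the 9 genes was not tested. Different cell mixtures and different chromatin within 1 cell type cannot be told apart in pooled lists.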

How the data were processed

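ATAC-seq peaks of Dll1+ and Dll1- MMTV-PyMT tumour cells were analysed. Replicates of a group were pooled by the authors in the ENCODE pipeline for this assay, and 1 optimal peak list per group was deposited, so no values per sample were analysed here. Aligner, peak caller and thresholds are not given in the sources used here. The deposited fold enrichment is the ratio of reads to local background at a summit. The deposited −log10 p-value is also the authors' own. Scores and q-values were not used.

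The labels name mm10 and GRCm38, and 0 rows passed a chromosome end. Rows were merged where they overlapped or touched (1 bp or more shared, or adjacent) and assigned by midpoint to the nearest TSS of a protein-coding transcript (GENCODE basic, GRCm38). Distances are to that TSS, which need not be at the 5′ end of the gene. Genome sequence and coordinates are GRCm38, 1-based. Python 3.11.15, numpy 2.4.6, pandas 2.3.3, scipy 1.17.1 and pysam 0.24.0 were used. Reads and backgrounds were recovered from fold and p under a Poisson model with 1 added to both reads and background in the fold. This left 0 of 132872 Dll1+ rows and 1 of 148923 Dll1- rows unsolved, and the steps were checked on simulated data.

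The regions named were the 3 strongest of the Dll1+ list alone, the 5 strongest of the Dll1- list alone, the 4 largest rank differences in each direction, each gene's largest difference of at least 20 points, its promoter region and its strongest region. Regions outside this rule are marked as chosen after their values were seen. Other pathway genes were named with 3 or more regions in 1 list alone and 0 in the other, or among the 3 with most regions. The members, lists and rules were chosen with earlier results of these data known. Alternatives were other row sets, overlap rules, rank measures, thresholds, distances, start sites and windows.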

Additional observations from a re-analysis of the deposited data

How the results depend on the processing

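No paired analysis was possible because each list pools its samples, although 3 tumours gave both groups, and for the same reason no replicate could be left out. Values therefore carry no replicate error. Requiring rows above the median fold of their list left 96 shared, 17 Dll1+ and 41 Dll1- regions of the 9 genes (11.0% and 26.6%; all union regions 9.85% and 20.4%), and 205 shared and 62 Dll1- regions of the other pathway genes. Within 50 kb of a start these were 90, 14 and 30 (Dll1+ 10.4% and Dll1- 22.4%; all 7.87% and 23.6%), and 222 shared and 89 Dll1-, and 9 regions ranked higher in Dll1-. Counting regions of 1 list alone only above that median left 1 Dll1+ and 16 Dll1- regions of the 9 genes (0.503% and 8.04%; all 1.90% and 7.49%), and 6 and 25 of the others. With 50% reciprocal overlap the other genes had 61 Dll1+ regions in place of 31, beside 328 shared and 172 Dll1- regions. The shares of all union regions under this rule are not given, so this count has no background.

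The number higher in Dll1+, 12, became 7 by p, 3 by reads, 20 with equal rows, 33 at 10 points and 3 at 30 points, beside 5.76%, 4.53%, 10.5%, 15.2% and 2.34% of all shared regions. The number higher in Dll1-, 23, became 15 with equal rows, 52 at 10 points and 11 at 30 points, beside 7.93%, 25.1% and 4.58%. The median difference of -1.97 became -3.93 among regions, -0.239 among shared regions, -3.39 by reads and, with its sign turned, 0.192 with equal rows. The cause of the turn was not tested. Counted as Dll1+ minus Dll1- regions, Tgfb3 turned from -1 to 1 within 50 kb and to 2 at scaled depth with the stricter p, where Tgfb2 turned from -2 to 1 and Tgfbr2 from -6 to 4. Scaling depth alone, at the lowest p of the Dll1+ list, removed none of the 284 regions. The promoter regions stayed under 20 points in 45 of 45 checks, and the 11 shared regions named for their rank difference kept its direction in 55 of 55, with 8 values under 20 points. Regions of 1 list alone had no such check. With windows of 50 bp each side the AP-1 share was 17.3% in all and 0% in Dll1+ regions, with CAGA at 14.1%, TEAD at 10.6% and RUNX at 7.75%.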
